A study of Mus musculus with 16 samples.

Results

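The transcriptome of RAW264.7 cells, a macrophage line raised from a mouse tumour induced by Abelson leukaemia virus, was described in its untreated state. The libraries were chosen by their labels: 4 libraries numbered control 1 to control 4, out of 16 in the series, came from cells given vehicle, which here was culture medium. The labels name the cells as mononuclear macrophage leukemia cells and describe culture in high-glucose medium with fetal bovine serum and antibiotics. The remaining libraries came from cells given oxidised low-density lipoprotein, tirzepatide or both, and none of them entered any value below. The line carries a transforming virus and grows without added growth factor, which limits it as a model of resting tissue macrophages. Nothing in the labels says whether the 4 libraries came from separate cultures, so the spread between them may be technical, and no batch, date or passage is given.

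Macrophages are phagocytes of the innate immune system. They sense microbes and debris through pattern receptors, take them up through scavenger, lectin, complement and Fc receptors, digest them with lysosomal enzymes, and signal through cytokines and chemokines. Their identity rests on the transcription factor PU.1, encoded by Spi1, and on signalling from colony-stimulating factor 1 through its receptor Csf1r. The descriptions that follow go from identity to sensing, uptake, cytokine and other receptors, transcription factors, secreted products, enzymes and growth, and end with the spread between libraries.

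Expression was measured by RNA sequencing as an expected count per gene and as TPM, a transcript level scaled for transcript length and for library depth. The shallowest library, control 1, held 16134421 counts and the deepest, control 3, 16840886; 13131 to 13276 of 21965 genes had a count in a library. Controls 1 and 2 held more mitochondrial and pancreatic RNA than controls 3 and 4. Genes encoded by the mitochondrial genome took 11.2%, 9.53%, 8.39% and 8.32% of counts in controls 1 to 4, and the 95% Wilson interval for control 1 was 11.15% to 11.19%. Such intervals describe counting error alone, as no molecular identifiers were used to remove PCR copies. Transcripts of pancreatic acinar cells, which make digestive enzymes and are no macrophage product, summed to 394, 216, 54.5 and 29.4 TPM over 27 markers, and 9 of the 27 were at 1 TPM or more in every control. Chymotrypsinogen, Ctrb1, was at 74.6, 47.9, 7.52 and 3.81 TPM, and Prss1, a trypsinogen, was at a count of 0 in all 4. Islet markers summed to at most 0.773 TPM, with Ins2 and Pdx1 at 0. The lowest pairwise correlation of log2 CPM, counts scaled to a common library total, across the 10393 genes at 1 TPM or more in every library was 0.9912, between controls 1 and 3, and the highest was 0.9957, between controls 3 and 4. Control 2 was nearer to controls 3 and 4, at 0.9951 and 0.9947, than to control 1, at 0.9941. Every pair differed by more than counting error, with a chi-square per degree of freedom from 4.13 to 17.1. What part these differences in composition have in the levels below was not tested. Without controls 1 and 2, the number of present members stayed within 1.5 times in 72 of 73 lists, the exception being the endothelial markers, with 2 in place of 1 of 8.

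**Figure D1:**
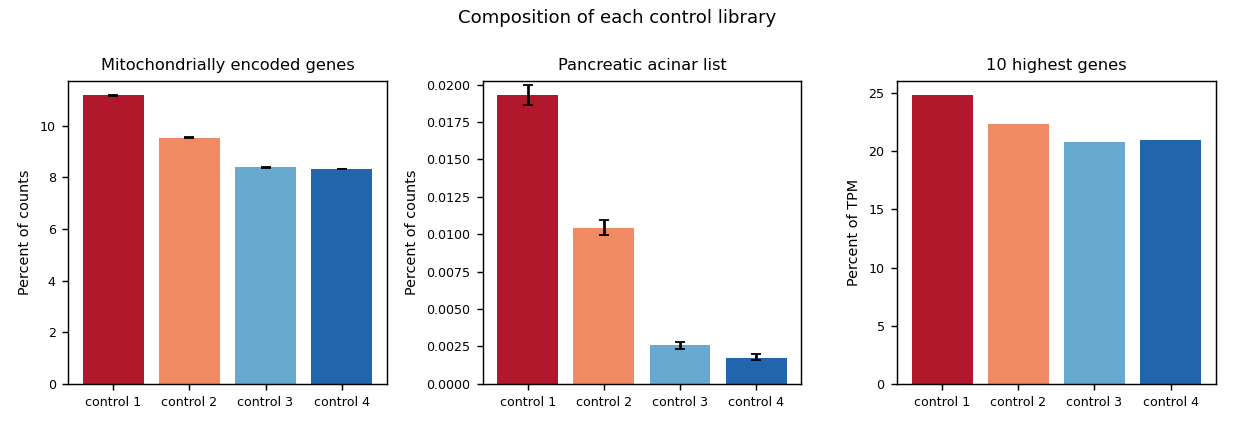
Share of counts from mitochondrially encoded genes (left), share of counts from the pancreatic acinar list (middle) and share of TPM held by the 10 highest genes of each library (right) in the 4 control libraries. Error bars in the first 2 panels are 95% Wilson intervals. Each share is highest in control 1 and next highest in control 2.

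Of the 21965 genes, 10393 were at 1 TPM or more in each of the 4 controls and are called present. This is 47.3% of the table, the background for every list below. A further 7277 genes, 33.1%, had an expected count of 0 in all 4 and are called not detected. The other 4295 are called low, and 1528 of those had 3 counts or fewer over the 4 libraries together. A count of 0 allows up to 3 counts, or 0.0456 CPM over the 65851825 counts pooled, so "not detected" is a statement about this depth. Without controls 1 and 2, 10518 genes were present.

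Machinery that every dividing cell uses was nearly complete, while few genes of neuroactive ligand-receptor signalling, hormone ligands and steroid hormone synthesis were present. By the pathway annotation of the deposited table, all 44 genes of aminoacyl-tRNA biosynthesis, all 43 of nucleotide excision repair, all 35 of DNA replication and all 32 of RNA polymerase were present. The ribosome had 127 of 130, the spliceosome 128 of 132, the proteasome 43 of 47 and the cell cycle 115 of 125. At the other end, neuroactive ligand-receptor interaction had 31 of 376 present, steroid hormone biosynthesis 10 of 92 and complement and coagulation cascades 17 of 92. Genes annotated with hormone activity stood at 10 of 130, and those with cytokine activity at 42 of 241.

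The most abundant transcripts were mitochondrial, followed by a small set of cytosolic and secreted products. mt-Co1, a subunit of cytochrome c oxidase, had the highest level at 57415, 53186, 49078 and 48436 TPM. The next 3 places were also mitochondrial, mt-Co2, mt-Co3 and mt-Atp6. All 4 were highest in control 1. The highest nuclear gene was Akr1b1, aldose reductase, which turns glucose into sorbitol, at 21810.0, 23525, 24095 and 22751 TPM. Eef1a1, which brings tRNA to the ribosome, had 17372 ± 707 TPM (SD, n = 4, as for every value written this way below). Spp1, the secreted phosphoprotein osteopontin, was at 18028, 16561, 15576 and 16675 TPM, and Lyz2, the lysozyme of myeloid cells, at 16458, 15150.0, 15472 and 16117 TPM. The values of Spp1 and Lyz2, at places 7 and 8, overlap across libraries, but Spp1 was above Lyz2 in every library. Ferritin light chain, Ftl1, stood at 6799 ± 453 TPM, while ferritin heavy chain, Fth1, was listed at 9.48 ± 2.89 TPM. Both ferritin genes have many near-identical copies in the genome, as do Eef1a1, Gapdh and the ribosomal protein genes, so levels that depend on how shared reads were divided are uncertain.

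The 10 highest genes of each library held 24.8%, 22.4%, 20.8% and 21% of its TPM, and the 1000 highest held 69.1% to 71.5%. The number of genes that made up the upper 50% of TPM was 136, 160, 181 and 194 in controls 1 to 4. With mitochondrially encoded genes left out and the shares recomputed, the 10 highest genes held 12.7 ± 0.239% (SD, n = 4). The summed TPM of 48 of the 73 lists used here was lowest in control 1, and of 33 with mitochondrially encoded genes left out. In TPM, Spp1 and Lyz2 were highest in control 1. These orders between libraries were not examined in scaled counts. The part of the mitochondrial share in these levels was not tested.

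The macrophage identity of the line was visible in its markers. All 5 markers given for these cells were present. Csf1r, the receptor for colony-stimulating factor 1, was at 581, 593, 740.4 and 844 TPM, lower in controls 1 and 2 than in controls 3 and 4. In counts scaled between libraries, which take no account of transcript length, the coefficient of variation of Csf1r was 3.27%, so the step between the libraries stands in the TPM and not in the counts. Cd68, a lysosomal glycoprotein, was at 572, 611, 654 and 639 TPM. Adgre1, which encodes the F4/80 antigen, was at 213, 228, 257 and 240.1 TPM, and Spi1 at 204, 219, 248 and 228 TPM. The values of Adgre1 and Spi1 overlap across libraries, with Adgre1 above Spi1 in every library. Over the wider list of macrophage markers, 17 of 27 were present, 6 low and 4 not detected. High members beside the 5 were Lamp1, a lysosomal membrane protein, at 1143 ± 89.9 TPM, Tyrobp, an adaptor that couples myeloid receptors to Syk, at 695 ± 31.2 TPM, Lgmn, a lysosomal protease, at 582 ± 35.5 TPM, and Emilin2, an extracellular glycoprotein, at 225 ± 35.3 TPM. Itgam, the CD11b integrin chain, was lower, at 61.6 ± 4.82 TPM.

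Several genes that mark resident or mature macrophages were low or not detected. Mertk, a receptor for apoptotic cells, was at 0.611, 0.248, 0.384 and 0.432 TPM. The mannose receptor, Mrc1, and the fractalkine receptor, Cx3cr1, had means of 0.011 and 0.0887 TPM. The haemoglobin scavenger receptor Cd163, the phosphatidylserine receptor Timd4, the scavenger receptor Marco and the monocyte antigen Ly6c2 were not detected. Of 17 markers of microglia and tissue macrophages, 4 were present. Among these, Cd5l, Siglec1 and Slc40a1 were at 5.59, 5.09 and 4.56 TPM. P2ry12 of microglia, Clec4f and Vsig4 of Kupffer cells, Gata6 of peritoneal and Car4 of alveolar macrophages were not detected.

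**Figure D2:**
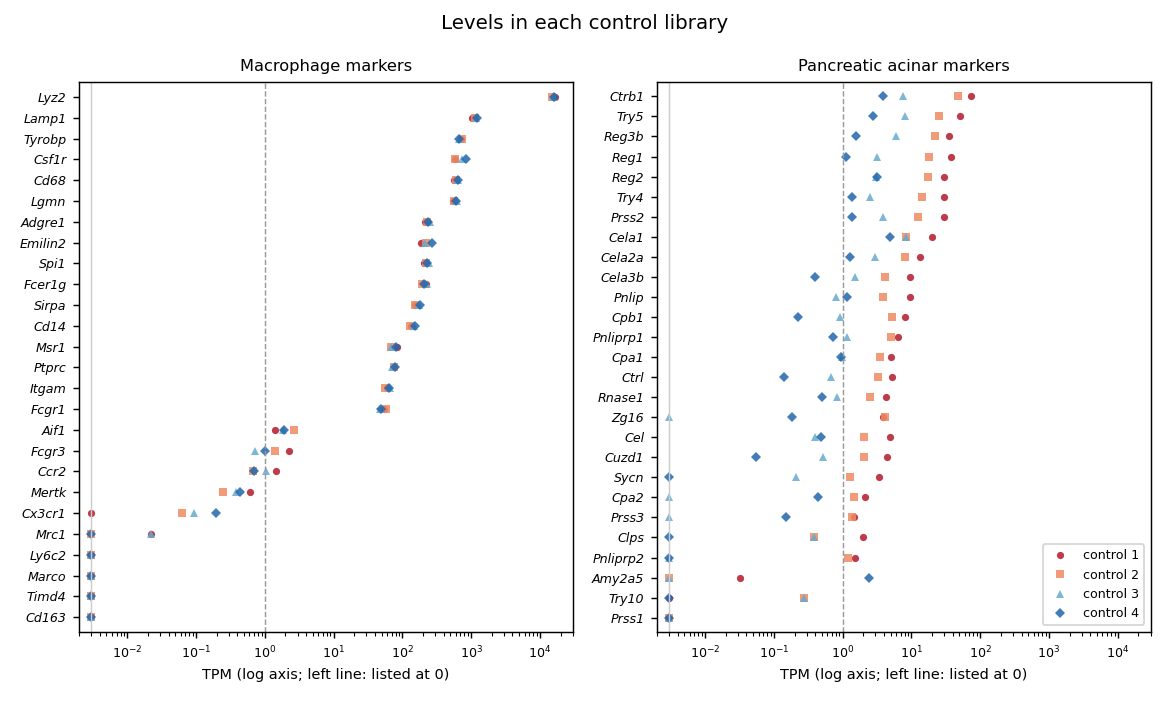
TPM on a log axis of 26 of the 27 macrophage markers (left) and 27 pancreatic acinar markers (right), with 1 symbol per control library. The dashed line is 1 TPM and the solid line at the left edge holds genes listed at 0. Macrophage markers above 1 TPM fall within a narrow range over the libraries, while most acinar markers are highest in control 1 and lowest in control 3 or 4.

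The sequence just before the annotated start is shown for Lyz2 and Spp1, which stood at places 8 and 7 of the table, and for the marker Cd68, from the RefSeq promoter table for build GRCm38.p6. Each window is 250 bases up to the start, 5′ to 3′ on the strand of the gene. Capitals mark GAGGAA on either strand, the core letters of the PU-box, a site that PU.1 can bind. Shorter letters that ETS factors can bind, such as GGAA, were not marked and also occur in the Lyz2 window.
Lyz2, chr10:117282273-117282522, minus strand: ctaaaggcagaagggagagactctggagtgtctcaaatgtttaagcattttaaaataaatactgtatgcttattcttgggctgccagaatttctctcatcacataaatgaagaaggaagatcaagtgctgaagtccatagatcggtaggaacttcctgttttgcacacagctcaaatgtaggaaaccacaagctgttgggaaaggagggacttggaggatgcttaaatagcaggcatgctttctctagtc
Spp1, first of 2 listed starts, chr5:104434861-104435110, plus strand: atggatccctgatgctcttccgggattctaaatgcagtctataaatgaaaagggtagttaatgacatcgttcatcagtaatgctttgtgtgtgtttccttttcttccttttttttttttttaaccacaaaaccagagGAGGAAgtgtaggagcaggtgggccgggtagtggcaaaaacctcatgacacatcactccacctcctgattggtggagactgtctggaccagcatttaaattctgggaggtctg
Cd68, chr11:69666171-69666420, minus strand: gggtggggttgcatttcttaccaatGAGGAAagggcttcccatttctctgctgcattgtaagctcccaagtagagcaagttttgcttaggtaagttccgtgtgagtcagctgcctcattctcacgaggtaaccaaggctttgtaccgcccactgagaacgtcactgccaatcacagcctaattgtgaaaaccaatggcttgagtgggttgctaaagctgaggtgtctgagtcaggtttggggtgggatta
The Spp1 and Cd68 windows each hold 1 match and the Lyz2 window holds 0. Of 32851 windows of this length in the table, 23.3% hold the same letters, so a match describes the sequence and no more. All 3 windows hold few CG pairs, with 1, 3 and 4 in Lyz2, Spp1 and Cd68 beside a median of 6 over all windows.

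Markers of other cell types were mostly low or not detected. In bulk RNA, a few cells rich in a transcript and many cells poor in it cannot be told apart. Over 183 such genes in 15 lists, 23 were present (12.6%), of which 9 were the acinar genes described above. A further 96 were low and 64 were not detected, beside 33.1% not detected over all genes. No member of the mast cell, fibroblast, epithelial, muscle, hepatocyte or islet list was present. Among neutrophil genes S100a8 was present at 6.64, 3.66, 2.91 and 1.53 TPM, higher in controls 1 and 2 than in 3 and 4, while S100a9, its usual partner, had a mean of 0.0578 TPM and the granule enzymes Elane and Mpo 0.12 and 0.0755. The T cell kinase Lck was at 11 ± 0.756 TPM, with Cd3e, Cd3g and Cd8a not detected. Ighm, the immunoglobulin heavy chain of B cells, was at 14.9 ± 2.92 TPM, with Ms4a1 and Igkc not detected. Mbp, known from myelin, was at 44 ± 5.94 TPM, with Mog and Olig2 not detected. RAW264.7 cells can turn into osteoclasts, and of 11 osteoclast genes 4 were present. Among them were Tnfrsf11a, the receptor RANK that starts that change, at 23.8 ± 1.96 TPM, the factor Nfatc1 at 46.7 ± 6.13 TPM and the gelatinase Mmp9 at 65.3 ± 12.8 TPM. Acp5, the tartrate-resistant phosphatase, was at 3.5, 7.16, 8.51 and 10.0 TPM, the protease Ctsk was low at 1.07 TPM, and the fusion gene Ocstamp and the calcitonin receptor Calcr were not detected.

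Toll-like receptors, which recognise microbial lipids, proteins and nucleic acids, were present in 7 of 12 cases. Tlr2, the receptor for bacterial lipopeptides, was highest at 57.4, 53.9, 58.8 and 61.6 TPM. Next came Tlr13, which senses bacterial ribosomal RNA, at 49.1, 44.7, 42.4 and 47.6 TPM. Tlr4, the endotoxin receptor, was at 23.9, 20.7, 19.6 and 22.8 TPM. The values of these 3 do not overlap. Tlr7, which senses single-stranded RNA, followed at 15.1 ± 1.16 TPM, and Tlr6, a partner of Tlr2, at 12.6 ± 2.44 TPM, with values that overlap those of Tlr7. Tlr1 and Tlr9, the DNA sensor, were at 6.97 and 5.65 TPM. Tlr3, the sensor of double-stranded RNA, was at 0.553, 0.203, 0.029 and 0.03 TPM, above 0.1 TPM in controls 1 and 2 only. Tlr5, Tlr8, Tlr11 and Tlr12 were not detected. The chaperone Unc93b1, which carries the nucleic acid sensors to endosomes, was higher than any of the receptors at 238, 306, 347 and 317 TPM. Of the accessory proteins and adaptors 15 of 17 were present, including the endotoxin co-receptors Cd14 at 139.9 ± 11.6 TPM and Ly96 at 34.5 ± 6.73 TPM and the adaptor Myd88 at 73.7 ± 3.8 TPM. Irak3, a kinase-like inhibitor of the pathway, was at 99 ± 7.48 TPM, above the kinase Irak4 at 30.8 ± 2.17 TPM.

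Sensors inside the cell were more uneven. Aim2, a sensor of cytosolic DNA, stood far above the other inflammasome genes at 330.2, 319, 299 and 316 TPM. Pycard, the ASC adaptor through which Aim2 and Nlrp3 recruit caspase-1, was at 0.252, 0.156, 0.062 and 0.163 TPM. RAW264.7 cells are known for lacking this adaptor. Nlrp3 itself was present at 25.6, 31.3, 30.5 and 32.6 TPM, as were its partner Nek7 at 38.4 ± 0.713 TPM, Casp1 at 40.0 ± 1.77 TPM, Casp4 at 84.7 ± 9.44 TPM and the pore-forming Gsdmd at 67.5 ± 5.23 TPM. Naip2, which binds bacterial secretion proteins, was at 20.6 ± 0.893 TPM, whereas its signalling partner Nlrc4 was low at 0.839 TPM. Mefv, the pyrin sensor, was at 0.012 TPM, and Nlrp1a and Nlrp12 were not detected. In all 16 of 25 members of the list were present. For nucleic acid sensing outside inflammasomes 10 of 11 were present, with the RNA sensors Rigi at 31.5 ± 0.447 TPM and Ifih1 at 8.71 ± 0.736 TPM, and the DNA-sensing pair Cgas at 16.3 ± 0.793 TPM and Sting1 at 26.9 ± 0.708 TPM. Zbp1, a sensor of left-handed nucleic acids, was low at 0.114 TPM. Naip genes and the Aim2-like genes Mndal, Ifi202b and Ifi204 lie in families of near-identical copies, so the split of reads between them is uncertain.

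Lectin receptors were few. Of 22 members 7 were present. Clec4d, a receptor for mycobacterial glycolipid, was highest at 214, 197, 197 and 192 TPM, followed by Clec5a, a receptor that signals through DAP12, at 89.3, 77.1, 75.3 and 86.8 TPM. Clec4e, the Mincle partner of Clec4d, was at 18.7 ± 2.14 TPM. Clec7a, the beta-glucan receptor dectin-1, was not detected, nor were Cd209a, Cd209b and Mgl2. Of 12 Fc receptor genes 6 were present. Fcer1g, the shared signalling chain, was at 213 ± 15.8 TPM and Fcgr1, the high-affinity IgG receptor, at 52.2 ± 4.94 TPM. Fcgr3 was low at 2.26, 1.41, 0.714 and 1.01 TPM, and the inhibitory Fcgr2b was at 2.73, 3.24, 1.85 and 4.5 TPM. The IgE receptor alpha chain Fcer1a was not detected. Fcrl1, known from B cells, was present at 20.3 ± 1.96 TPM.

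Of complement genes 9 of 21 were present. Itgb2, the shared chain of the leukocyte integrins and complement receptors, was at 222 ± 11.9 TPM, Cr1l, a regulator of complement on the cell surface, at 135 ± 6.76 TPM and properdin, Cfp, at 111 ± 8.23 TPM. The anaphylatoxin receptors C3ar1 and C5ar1 were at 38.4 ± 1.91 TPM and 12.9 ± 3.98 TPM, and C3, the central component, at 36.9 ± 5.02 TPM. The 3 chains of C1q, which macrophages of tissues make in quantity, were low in these cells, with means of 0.0288, 0.138 and 0.0737 TPM for C1qa, C1qb and C1qc.

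Among receptors for uptake, scavenger receptors had 8 of 17 present. After Cd68, the highest were Lrp1, a large endocytic receptor, at 77.1 ± 14.9 TPM, and Msr1, the class A receptor for modified lipoproteins, at 82.6, 69.6, 68 and 79.8 TPM. Their values overlap. Colec12 and Scarb1, a receptor for high-density lipoprotein, followed at 61.6 ± 2.6 TPM and 58.1 ± 5.91 TPM. Cd36, which takes up oxidised lipoproteins and fatty acids in many macrophages, was at 0.186, 0.092, 0.092 and 0.046 TPM. Olr1, the lectin-like receptor for oxidised lipoprotein, and Scara3, Scara5, Stab2 and Marco were not detected. For clearance of dying cells 12 of 20 genes were present. Cd300lb, an activating receptor of myeloid cells, was at 253, 242, 238 and 239 TPM, the bridging protein Mfge8 at 99 ± 12.2 TPM and Trem2, a lipid-sensing receptor, at 62.9 ± 5.38 TPM. Of the 3 related kinases Tyro3, Axl and Mertk, Tyro3 was present at 7.28, 8.97, 7.68 and 8.27 TPM, and Axl was at 0.028, 1.25, 0.121 and 0.127 TPM. Their ligand Gas6 was present at 13.5 ± 1.53 TPM.

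Inhibitory and co-stimulatory receptors had 17 of 27 present. Sirpa, which reads the signal of CD47 on other cells, was at 166 ± 13.3 TPM and Cd47 itself at 136 ± 9.16 TPM. Cd80 was at 65.9, 55.4, 50.7 and 52.6 TPM and Cd86, the other ligand of CD28, at 1.6, 1.21, 1.62 and 1.61 TPM. Cd40 was at 37.3 ± 3.79 TPM, and Vsir, an inhibitory checkpoint protein, at 74.9 ± 11.3 TPM. Cd274, the ligand PD-L1, was at 4.5 ± 0.444 TPM, with Pdcd1lg2 and the receptor Pdcd1 not detected. Lilrb4a and Lilrb4b are near-identical copies, listed at 25.1 and 23.8 TPM, and were not told apart.

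**Figure D3:**
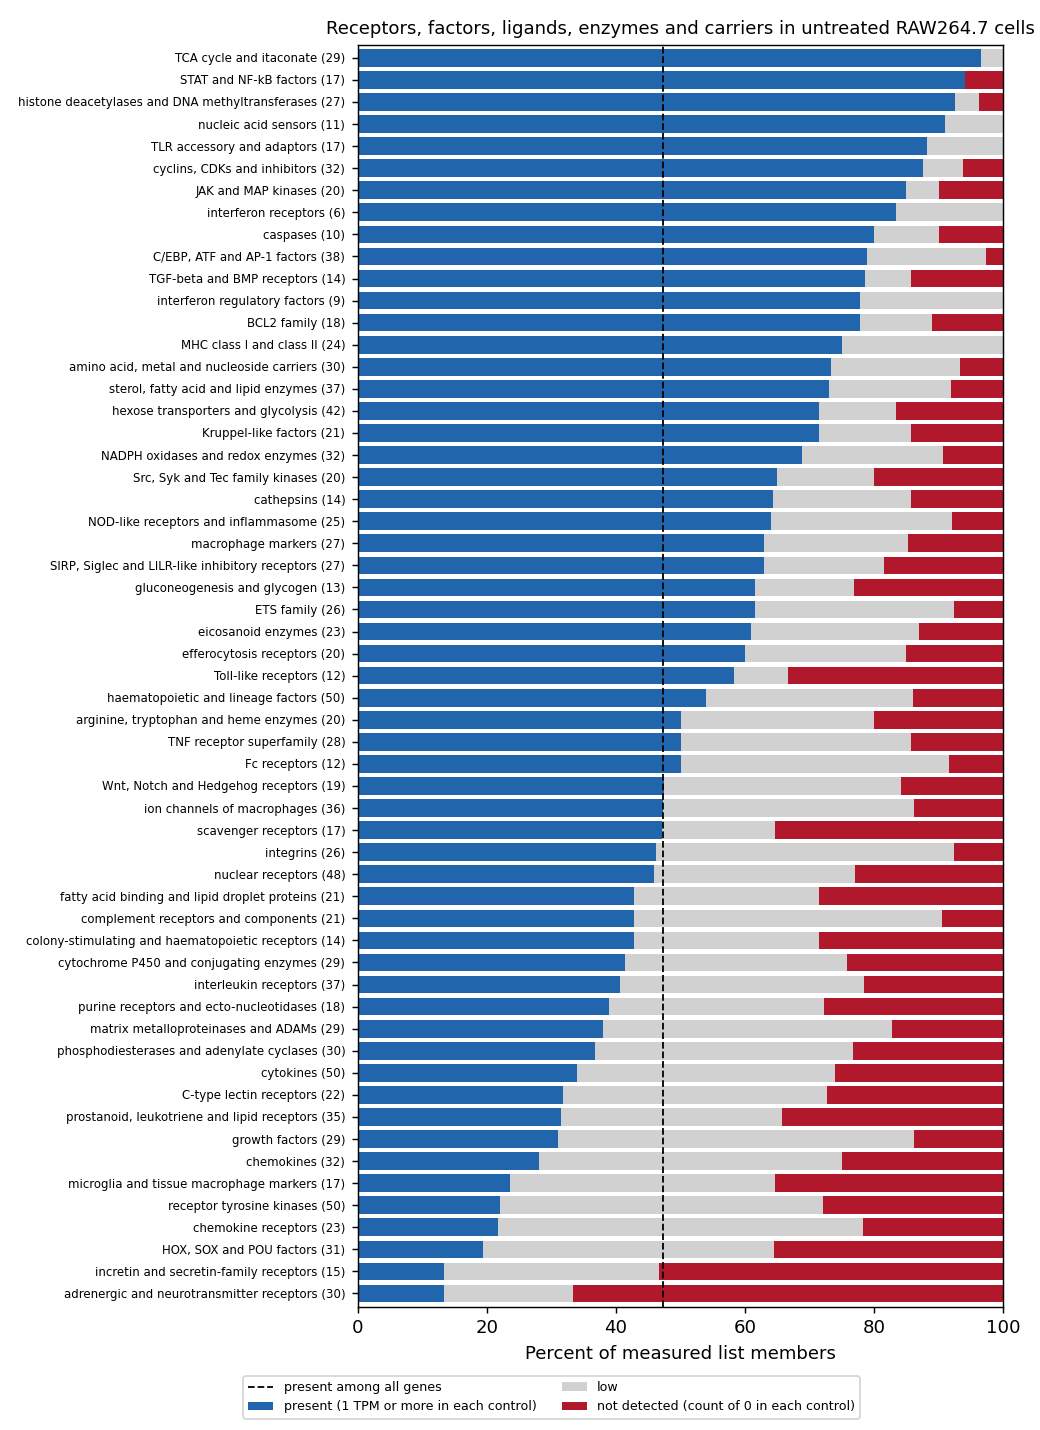
Percent of the measured members of each list (number in brackets) that were present, low (neither of the other classes) or not detected in the 4 control libraries. The dashed line is the 47.3% of all genes that were present. Apart from lists of other cell types and of abundant genes, the share runs from 28 of 29 genes for the TCA cycle to 4 of 30 for adrenergic and neurotransmitter receptors and 2 of 15 for the secretin family.

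Receptors for growth and survival factors were dominated by Csf1r. Of 14 receptors for colony-stimulating and related factors 6 were present, and Csf1r stood above the next, Csf2rb, the shared chain of the GM-CSF receptor, at 47 ± 4.88 TPM. Csf2ra, the chain that binds GM-CSF, was at 20.2 ± 2.85 TPM. Csf3r, for the granulocyte factor, was low at 0.828 TPM, and Kit was not detected. Of 50 receptor tyrosine kinases 11 were present, beside Csf1r mainly Ryk, a Wnt co-receptor, at 66.8 ± 3.64 TPM, Epha2 at 26.3 ± 2.95 TPM, the insulin receptor Insr at 17 ± 2.16 TPM and Met, the receptor for hepatocyte growth factor, at 13.7 ± 1.61 TPM. Igf1r, the receptor for insulin-like growth factor, was at 0.00775 TPM, with 3 counts over the 4 libraries. Erbb4, Fgfr2, Fgfr4, Ret and 9 more of the list, Ntrk2, Ntrk3, Ros1, Ror1, Ror2, Epha7, Ephb1, Ephb3 and Ephb6, were not detected.

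Cytokine receptors were present in part. Interleukin receptors had 15 of 37 present, led by the common gamma chain Il2rg at 60.7 ± 2.31 TPM and Il10rb at 60.0 ± 1.24 TPM, whose values overlap. Il10ra, which with Il10rb receives interleukin-10, was at 23.8 ± 1.22 TPM, and Il6st and Il6ra at 34.8 and 22.6 TPM. Il4ra, which receives interleukin-4, was lower, at 8.06 ± 1.08 TPM. For interleukin-18 the chains were unequal: Il18rap, the accessory chain, was at 45.5, 47.8, 44 and 41.9 TPM, and Il18r1, the chain that binds the cytokine, at 0, 0.028, 0.136 and 0 TPM. For interleukin-1, Il1rap was at 12.5 ± 0.976 TPM and Il1r1 low at 1.23 TPM, with the decoy Il1r2 not detected. Il2ra, Il3ra, Il5ra, Il12rb2, Il21r, Il22ra1 and Il31ra were also not detected. Both chains of the type I and type II interferon receptors were present, with Ifnar2 at 107 ± 6.89 TPM, Ifnar1 at 36.7 ± 2.3 TPM, Ifngr1 at 28.8 ± 1.86 TPM and Ifngr2 at 35.1 ± 2.1 TPM, while Ifnlr1, for type III interferon, was low at 0.329 TPM.

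The receptor superfamily for tumour necrosis factor had 14 of 28 present. Tnfrsf1a, the broadly used receptor for TNF, was at 73.8, 78, 76 and 89.6 TPM, and Tnfrsf1b, the second one, was at 0.97, 0.931, 0.988 and 1.17 TPM. Tnfrsf23, Tnfrsf26 and Tnfrsf22, 3 neighbouring mouse genes of which Tnfrsf22 and Tnfrsf23 are decoys for TRAIL, were at 88.6, 78.7 and 50.0 TPM. Their active counterpart Tnfrsf10b was at 10.8 ± 0.353 TPM. Fas was at 0.081, 0, 0 and 0.167 TPM, and Ngfr, Edar, Tnfrsf17 and Tnfrsf19 were not detected. Receptors for TGF-beta and bone morphogenetic proteins had 11 of 14 present, with Tgfbr2 at 58.1 ± 5.32 TPM, Bmpr1a at 51.6 ± 5.03 TPM and Tgfbr1 at 22.2 ± 2.12 TPM. Of 19 receptors for Wnt, Notch and Hedgehog signals 9 were present, led by Notch2 at 28.1 ± 3.2 TPM and the Wnt co-receptor Lrp5 at 22.1 ± 3.51 TPM, with values that overlap.

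Chemokine receptors were sparse. Of 23 genes 5 were present, none above 2.63 TPM on average, a level reached by Ccrl2, an atypical receptor. Cxcr3, Cxcr4, Cxcr5 and Ccr10 followed at 2.38, 2.29, 2.12 and 1.95 TPM, and neighbouring values in this order overlap. Ccr2, through which monocytes follow Ccl2, was low at 1.44, 0.674, 1.06 and 0.708 TPM, and Ccr1 was low at 0.801, 1.97, 1.21 and 1.09 TPM. Ccr3, Ccr8, Cxcr1 and Ackr1 were not detected. These receptors sit near the threshold, and 15 of 73 lists changed by more than 1.5 times when presence was set at 5 TPM. At that threshold none of the chemokine receptors was present.

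G protein-coupled receptors as a class were largely silent. Of 542 genes with this annotation, olfactory and pheromone receptors left out, 57 were present (10.5%) and 327 were not detected. Adgre1 was the highest of them. Htr1b, a serotonin receptor, was at 40.6, 42.8, 48.4 and 45 TPM, C3ar1 at 38.4 ± 1.91 TPM, and Ptger2, a prostaglandin E receptor that raises cyclic AMP, at 24.1, 23.8, 24.8 and 22.6 TPM. Ptger4, the other such receptor, was low at 0.656, 0.286, 0.534 and 0.823 TPM. Hcar2, the nicotinic acid receptor, was at 12.2 ± 0.865 TPM. Of 30 adrenergic and neurotransmitter receptors 4 were present and 20 not detected. Among these, beside Htr1b, were Chrnb1, a chain of the muscle nicotinic receptor, at 17.8 ± 1.36 TPM and the muscarinic receptor Chrm4 at 7.46 ± 1.29 TPM. Adrb1, Adrb3 and all alpha-1 receptors were not detected.

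Receptors of the secretin family, to which the targets of tirzepatide belong, had 2 of 15 present. Gipr, the receptor for the incretin GIP, was at 2.39, 2.86, 2.08 and 3.64 TPM. Glp1r was at 0.041, 0, 0 and 0 TPM, with 2 counts over the 4 libraries. Calcrl, which binds calcitonin gene-related peptide and adrenomedullin with a partner protein, was at 11.9, 11, 10.6 and 12.1 TPM, above Gipr in every library. Gcgr, Sctr, Vipr2, Ghrhr, Calcr, Crhr1, Crhr2 and Pth2r were not detected. Receptors for ATP and adenosine had 7 of 18 present, with the ATP-gated channels P2rx4 at 29.6 ± 3.42 TPM and P2rx7 at 18.2 ± 2.1 TPM and the adenosine receptors Adora2b and Adora2a at 10.2 and 7.74 TPM. P2ry12 and P2ry13 were not detected. Lipid mediator receptors had 11 of 35 present. Receptors for leukotrienes and formyl peptides were low or not detected, with Cysltr1, Cysltr2, Ltb4r2 and Fpr2 at a count of 0 and Ltb4r1 and Fpr1 at 0.107 and 0.157 TPM.

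Transcription factors were present somewhat more often than the 47.3% of all genes, by way of zinc fingers. Of 1591 genes that the deposited table places in a factor family, 865 were present (54.4%), and without the C2H2 zinc fingers 475 of 995 (47.7%). Families differed widely. All 10 E2F genes, which drive the cell cycle, were present, 42 of 48 ZBTB genes, 390 of 596 C2H2 zinc fingers, 35 of 107 helix-loop-helix genes and 33 of 224 homeobox genes. Highest of all was Hif1a, the factor that responds to low oxygen, at 1115, 1106, 1125 and 1180.3 TPM. Cnbp and Ybx1, which bind RNA as well as DNA, followed at 829 and 806 TPM. Atf4, the factor of the integrated stress response, was at 673, 661, 676 and 682 TPM. Rbpj, which acts below Notch, was at 535 ± 34.5 TPM, and Nfat5, which responds to osmotic stress, at 338 ± 14.4 TPM. The values of Hif1a and Atf4 do not overlap with each other or with Rbpj.

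The ETS family, to which PU.1 belongs, had 16 of 26 present. Etv1 was highest at 262, 278, 307 and 324 TPM, above Spi1 in every library. Ets2 followed at 182, 184, 202 and 226 TPM, with values that overlap those of Spi1 but are below Spi1 in every library. The next, Elf2, was at 52 ± 3.17 TPM. Ets1, a factor of lymphocytes, was low at 0.114, 0.2, 0.046 and 0.504 TPM, and Spib and Spic, the nearest relatives of Spi1, were at 0.476 and 0.0503 TPM. Interferon regulatory factors had 7 of 9 present. Irf5, which acts below Toll-like receptors, was at 68.4, 77.9, 86.6 and 90.2 TPM, and Irf7, the amplifier of type I interferon, at 46.8, 56.5, 63.9 and 55.7 TPM. Irf8, a partner of PU.1 in myeloid development, was at 11.9 ± 2.08 TPM, and Irf4 was low at 0.51 TPM. STAT and NF-kB factors and their inhibitors had 16 of 17 present, with Stat4 not detected. Nfkbiz and Nfkbia, inhibitor-like genes that NF-kB itself induces, were highest at 267 ± 10.2 TPM and 196 ± 11.3 TPM. Stat6, which acts below interleukin-4, was at 93.8 ± 7.66 TPM, above Stat3 at 43.8 ± 5.23 TPM.

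**Figure D4:**
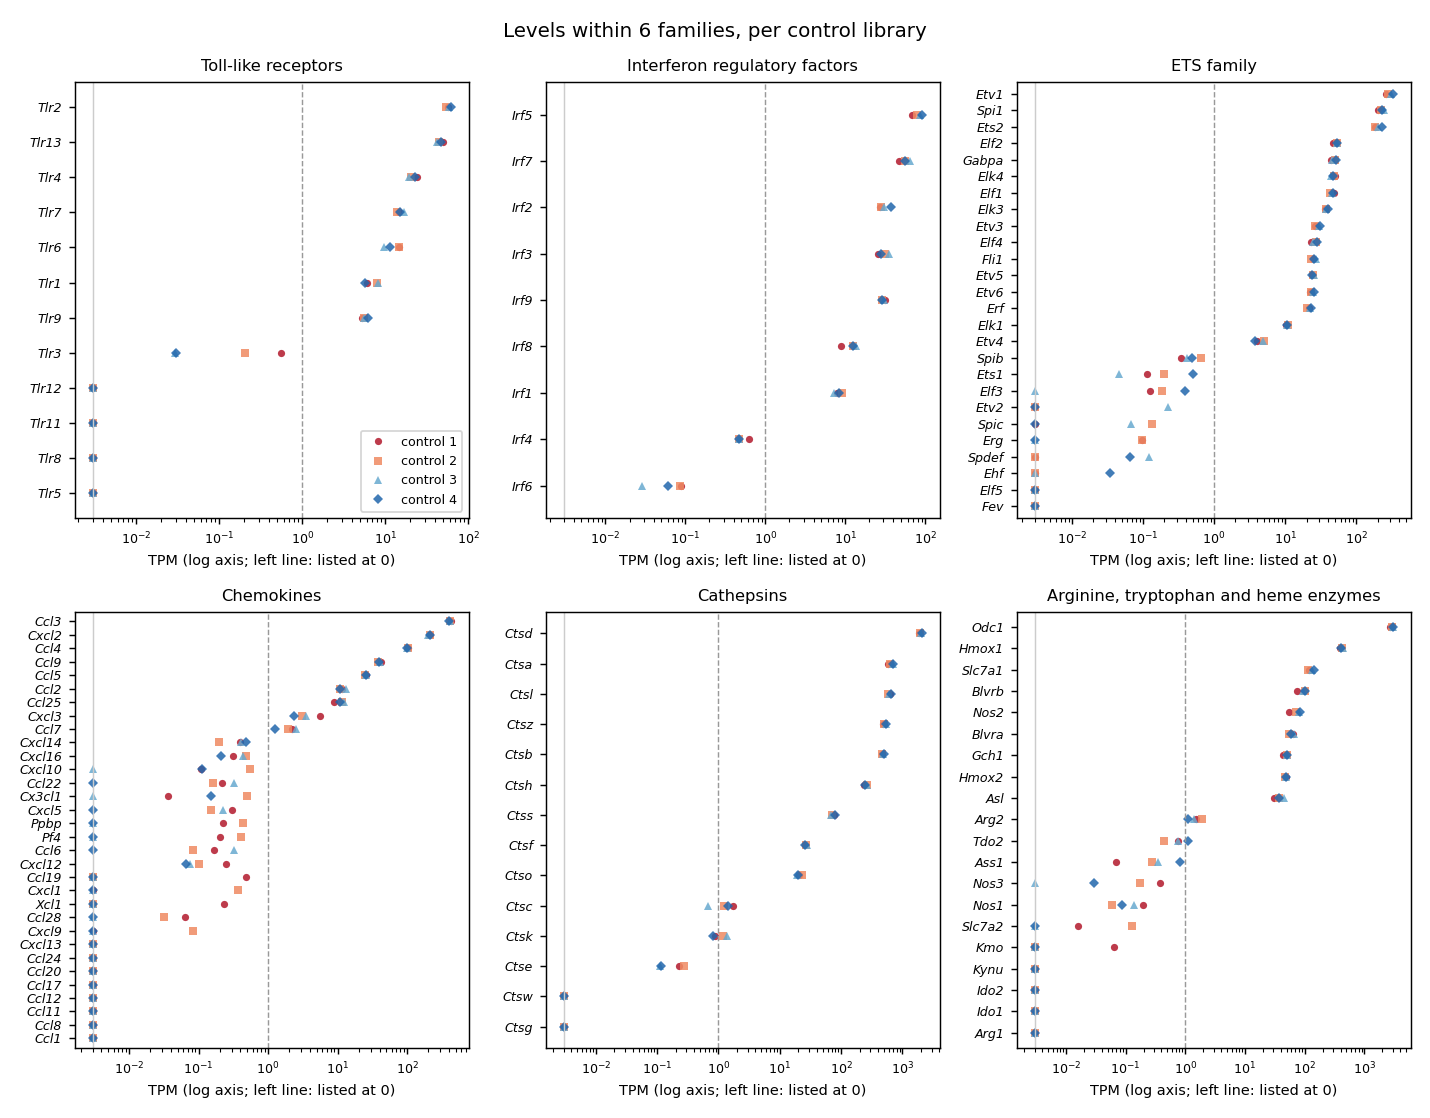
TPM on a log axis of the members of 6 families, with 1 symbol per control library, sorted by mean. The dashed line is 1 TPM and the solid line at the left edge holds genes listed at 0. The symbols of members above 10 TPM lie close together, while members below 1 TPM scatter and often reach 0.

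The list of C/EBP, ATF, AP-1 and related factors had 30 of 38 present. Of genes that the deposited table places in the basic leucine zipper family, 39 of 53 were present. After Atf4 came Fosl2, an AP-1 member, at 297 ± 20.9 TPM, and Nfe2l1, a regulator of proteasome genes, at 253 ± 46 TPM. Ddit3, the CHOP factor of the stress response, was at 157 ± 12.6 TPM, and Cebpb, a C/EBP factor of macrophages, at 79.5, 126, 137 and 129 TPM. Fos and Fosb, which rise within minutes of stimulation, were at 7.95 and 1.59 TPM. The large factor Maf was at 0.00475 TPM, while the small Maf factors Mafg, Mafk and Maff were at 78.7, 36.5 and 15.6 TPM. Krüppel-like factors had 15 of 21 present, with Klf6 at 78.3 ± 6.16 TPM and Klf4 and Klf2 at 11.2 and 7.46 TPM.

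Among factors of blood lineages 27 of 50 were present. Bcl6, a repressor known from germinal centre B cells and macrophages, was at 288, 339, 347 and 327 TPM. Mycn was at 214, 265.1, 304 and 283 TPM, and Myc at 13.8, 12.4, 14.8 and 13.3 TPM. The level of Mycn was 15.5, 21.3, 20.5 and 21.3 times that of Myc in controls 1 to 4. Ikzf1, Ikaros, was at 68.7 ± 5.37 TPM, Zeb2 at 77.6 ± 6.22 TPM and Lyl1, a haematopoietic factor, at 52.1 ± 2.79 TPM. All 3 Runx factors were present at similar levels, Runx1 at 9.25, 17.2, 22.9 and 18.5 TPM, Runx2 at 14.9 ± 1.9 TPM and Runx3 at 13.3 ± 1.95 TPM, with values that overlap. Among lysosomal regulators Tfe3 was at 127 ± 6.1 TPM, above Mitf at 18.9 ± 1.2 TPM and Tfeb at 4.95 ± 0.594 TPM, while Tfec was not detected. Myb, Gata1, Gata6, Ebf1, Ikzf3 and Mycl were not detected. Of 31 HOX, SOX, POU and stem cell factors 6 were present, led by Pou2f2, known as Oct2, at 77.5 ± 10.8 TPM and Hoxb7 at 24.1 ± 3.01 TPM.

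Nuclear receptors, which bind steroids, lipids and vitamins, had 22 of 48 present. Of the 2 liver X receptors, which sense oxidised cholesterol, Nr1h2 was at 59.7, 74.9, 88.3 and 85.9 TPM and Nr1h3 at 6.99, 5.14, 7.03 and 6.63 TPM. Of their partners, Rxrb was at 65.2, 69.1, 74.2 and 74.8 TPM and Rxra at 8.94, 7.2, 7.79 and 8.56 TPM, with Rxrg not detected. Ppard was present at 12.9 ± 1.18 TPM, while Pparg, the fatty acid sensor of alveolar macrophages and foam cells, was at 0.135, 0, 0 and 0 TPM and Ppara at 0.196 TPM. Nr3c1, the glucocorticoid receptor, was at 31.8 ± 2.18 TPM, and the 3 retinoic acid receptors Rarb, Rarg and Rara were at 50.9, 27.4 and 26.3 TPM. The progesterone receptor Pgr and the oestrogen receptor Esr2 were not detected, and Esr1 was low at 0.126 TPM.

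Secreted products were few but some were very high. Of 50 cytokines 17 were present. After Spp1 came Mif, the macrophage migration inhibitory factor, at 882, 1079, 1138 and 1046 TPM, and Grn, progranulin, at 874 ± 60.5 TPM. Tgfb1 was at 179 ± 27.1 TPM. Tnf was at 158, 163, 163 and 167 TPM, with values that overlap those of Tgfb1. Il18 was at 49.8 ± 3.92 TPM in cells not given any stimulus, while Il6 and Il10 were at 1.68 and 3.5 TPM. Il1b was low at 1.15, 1.57, 2 and 0.457 TPM, and Il1a at 0.122 TPM. Interferon genes Ifnb1, Ifng and Ifna4, and Il12a, Il2, Il4, Il13, Il17a and Il33, were not detected. Csf1, the ligand of Csf1r, was present at 3.22, 5.94, 2.98 and 3.27 TPM, and Il34, the other ligand, was low at 0.396 TPM.

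Chemokines had 9 of 32 present. Ccl3 was highest at 424, 416, 407 and 404 TPM, followed by Cxcl2, which draws neutrophils, at 212, 210.3, 200.2 and 213 TPM and Ccl4 at 102, 103, 101 and 98.4 TPM, and the values of these 3 do not overlap. Ccl9 and Ccl5 followed at 40.0 and 25.2 TPM, and Ccl2, which draws monocytes, at 11.7 ± 1.06 TPM. Cxcl10, a product of interferon signalling, was low at 0.191 TPM. Ccl17, Ccl24, Ccl8 and Ccl12 were not detected. Growth factors had 9 of 29 present, led by Vegfa at 106 ± 6.39 TPM, Vegfb at 38.8 ± 5.46 TPM and Pdgfa at 22.2 ± 2.52 TPM. Igf1, which many tissue macrophages make, was at 0.00425 TPM with 1 count in all.

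Enzymes of glucose use were high with isoforms far apart in level. Of 42 genes 30 were present. Slc2a1, the basal glucose carrier, was at 138 ± 12.8 TPM and Slc2a3 at 30.4 ± 4.25 TPM, a ratio of 4.55 ± 0.305 within libraries. Hk1, Hk3 and Hk2, which trap glucose in the cell, were at 132, 47 and 28.9 TPM, with no overlap between neighbours. Aldoa was at 2496, 2926, 3286 and 3056 TPM, 74.4 ± 0.843 times Aldoc. Ldha, the lactate dehydrogenase subunit that favours lactate, was at 742, 784, 849 and 843 TPM. Ldhb, the other subunit, had a count of 0 in all 4 libraries, as did the testis subunit Ldhc. Pklr, the pyruvate kinase of liver and red cells, was not detected. Slc16a3 and Slc16a1, which carry lactate, were at 82.5 ± 14.9 TPM and 58.6 ± 3.51 TPM, with no overlap. Gluconeogenesis and glycogen genes had 8 of 13 present, with the mitochondrial Pck2 at 80.3 ± 7.02 TPM and its cytosolic counterpart Pck1 not detected.

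The windows before the starts of the 2 lactate dehydrogenase subunits are shown because 1 isoform is among the abundant genes and the other was not detected. Each is 250 bases from the RefSeq table for GRCm38.p6, on the strand of the gene. Capitals mark CACGTG, the E-box that MYC can bind. The motif reads the same on both strands. Shorter letters that fit the core of hypoxia factor sites, such as ACGTG and GCGTG, were not marked. GCGTG also occurs in the Ldhb window.
Ldha, first of 2 listed starts, chr7:46845554-46845803, plus strand: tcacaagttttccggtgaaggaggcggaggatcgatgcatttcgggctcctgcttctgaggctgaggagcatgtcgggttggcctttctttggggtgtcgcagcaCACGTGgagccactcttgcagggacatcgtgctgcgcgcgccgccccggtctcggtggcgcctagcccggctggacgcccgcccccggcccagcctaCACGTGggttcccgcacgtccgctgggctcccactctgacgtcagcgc
Ldhb, chr6:142507958-142508207, minus strand: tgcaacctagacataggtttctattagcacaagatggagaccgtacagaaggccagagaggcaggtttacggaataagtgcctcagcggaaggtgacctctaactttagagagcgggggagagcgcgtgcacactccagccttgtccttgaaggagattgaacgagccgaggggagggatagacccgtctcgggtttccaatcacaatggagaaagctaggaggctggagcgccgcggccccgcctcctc
The Ldha window holds 2 matches and the Ldhb window 0, while 6.02% of all windows in the table hold at least 1. Both windows are rich in CG, with 25 and 14. Methylation and factor binding were not measured in this series, and the letters say nothing of why Ldhb had no counts.

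The citric acid cycle was the fullest of the enzyme lists, with 28 of 29 present. Me1, the cytosolic malic enzyme that makes NADPH, was at 1605, 1694, 1746 and 1829.9 TPM, well above its mitochondrial relative Me2 at 36.5 ± 2.88 TPM, and Me3 was low at 0.007 TPM. Dld was at 459 ± 17.2 TPM and Cs, citrate synthase, at 208 ± 13.2 TPM. Acod1, which makes itaconate in activated macrophages, was present at 14, 11.2, 12.7 and 12.6 TPM. Arginine enzymes were split. Nos2, the inducible nitric oxide synthase, was at 55.5, 71.5, 81.5 and 82.7 TPM without stimulus, lowest in control 1, and Arg1, which competes for the same arginine, was not detected. Arg2 was at 1.49 ± 0.324 TPM. Odc1, the first enzyme of polyamine synthesis, was at 2654, 2872, 2978 and 2972 TPM, which is place 34 of the table. For the recycling of citrulline, Asl was at 37.9 ± 6.05 TPM but Ass1, the step before it, was at 0.07, 0.279, 0.348 and 0.804 TPM. Hmox1, heme oxygenase, was at 411 ± 19.1 TPM, above the constitutive Hmox2 at 48.1 ± 1.42 TPM. Ido1, Ido2 and Kynu, which break down tryptophan, were not detected.

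Eicosanoid enzymes had 14 of 23 present. Ptgs1 was at 188, 188, 199 and 205 TPM and Ptgs2, the inducible cyclooxygenase, at 84.8, 69.7, 71.9 and 78.6 TPM. Pla2g4a, which frees arachidonic acid, was at 91.9 ± 3.64 TPM. Alox5 and its helper Alox5ap were at 5.56 and 35.5 TPM, and Alox15, an enzyme of alternatively activated macrophages, was not detected. Tbxas1, thromboxane synthase, was low at 0.0595 TPM. Lipid enzymes had 27 of 37 present. Scd2, a desaturase, was at 214, 224, 252 and 261 TPM and Scd1 at 9.93, 4.39, 5.34 and 7.92 TPM. The cholesterol exporters Abcg1 and Abca1 were at 222 ± 12.5 TPM and 158 ± 8.41 TPM, and Soat1, which stores cholesterol as ester, at 139 ± 11.7 TPM beside Soat2 at 56.2 ± 0.772 TPM. Apoe, which tissue macrophages make in quantity, was at 14.3, 18.4, 13.2 and 11.9 TPM. Lpl, lipoprotein lipase, was at 0.209, 0, 0.068 and 0.03 TPM and Ch25h, Mgll and Cyp7a1 were not detected. The fatty acid binding proteins Fabp5 and Fabp4 were at 622 ± 28.6 TPM and 516 ± 28.8 TPM, in a ratio of 1.21 ± 0.0171 within libraries, and Plin2, the coat protein of lipid droplets, at 341 ± 25.3 TPM.

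Redox genes had 22 of 32 present. Of the phagocyte oxidase, Cyba was at 364 ± 28.4 TPM, Ncf1 at 156 ± 14.2 TPM, Ncf4 at 94.7 ± 4.93 TPM, Rac2 at 704 ± 91.3 TPM and the catalytic chain Cybb, below these, at 30.5, 31.2, 34.4 and 40.7 TPM. Nox1 was low at 0.275 TPM, and Nox3, Nox4 and Duox1 were not detected. Nqo1, a common target of the Nrf2 factor, was low at 0.385, 0.229, 0.228 and 0.16 TPM, while Gclm and Txnrd1, targets of the same factor, were at 64.7 and 148 TPM. Lysosomal cathepsins had 9 of 14 present, led by Ctsd at 1867, 1923, 1995 and 2057 TPM, with Ctsa, Ctsl, Ctsz and Ctsb at 655, 614, 513 and 476 TPM. Ctss, which trims the invariant chain for antigen presentation, was at 74.4 ± 4.81 TPM, and Ctsc was low at 1.74, 1.21, 0.681 and 1.41 TPM. Of matrix proteases and their inhibitors 11 of 29 were present. Adam10, Adam8 and Adam17, which shed surface proteins, were at 394, 345 and 97.6 TPM. Mmp9, given above, was the highest of the Mmp genes on the list, and Mmp12, the elastase of macrophages, was low at 0.316 TPM.

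Kinases that act below myeloid receptors were present in large part. Of Src, Syk and Tec family genes 13 of 20 were present. Syk was at 148 ± 5.66 TPM and Lyn at 129 ± 5.73 TPM, with Btk at 51.4 ± 3.37 TPM. Fgr, another Src kinase of myeloid cells, was low at 0.415, 0.529, 0.393 and 0.782 TPM, and Yes1, Blk and Bmx were not detected. JAK and MAP kinases had 17 of 20 present, with Mapk10 and Mapk4 not detected. Enzymes of cyclic nucleotides had 11 of 30 present. Adcy7 was the leading cyclase at 153, 154, 164 and 162 TPM, above Adcy6 at 11.6 ± 1.47 TPM. Of the phosphodiesterases that break down cyclic AMP in leukocytes, Pde4a and Pde4d were at 20.2 and 17.6 TPM, while Pde4b, the form tied to inflammation, was low at 0.167, 0.193, 0.164 and 0.213 TPM and Pde3b was not detected. Histone deacetylases, sirtuins and DNA-modifying enzymes had 25 of 27 present, with Tet1 not detected and Tet3 and Tet2 at 27.8 and 12.7 TPM.

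Carriers and channels were present in part. Of amino acid, metal and nucleoside carriers 22 of 30 were present, with Slc38a2 at 573 ± 13.6 TPM, Slc3a2 at 467 ± 19.3 TPM and Slc7a11, the cystine carrier, at 84.9 ± 5.98 TPM. The iron and manganese carrier Slc11a1, known as Nramp1, was at 130.5 ± 7.71 TPM, and Hamp, the iron hormone, was not detected. Channels had 17 of 36 present, among them Clic1 at 355 ± 6.18 TPM, Trpv2 at 104 ± 6.71 TPM, Piezo1, which opens on stretch, at 45.9 ± 6.29 TPM, and the potassium channels Kcnn4 and Kcnj2 at 40.5 and 32.6 TPM. Kcna3 and Kcna5, voltage-gated potassium channels of activated immune cells, were not detected.

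Antigen presentation was uneven between class I and class II. Of 24 genes 18 were present. B2m and the class I chains H2-D1 and H2-K1 were at 961 ± 27 TPM, 350.5 ± 14.9 TPM and 119 ± 11.2 TPM. Cd74, the invariant chain of class II, was at 1008, 1042, 1189 and 1103 TPM. Ciita, the activator of class II genes, was at 0, 0, 0 and 0.062 TPM. The class II chain H2-Ab1 was at 1.88, 1.37, 2.67 and 2.35 TPM, and its partner H2-Aa at 0, 0.143, 0 and 0.15 TPM. Cd74 was thus 535, 761, 446 and 469 times H2-Ab1 in the 4 libraries. Integrins had 12 of 26 present. Itgb7 and Itgb2 were at 219, 241, 257 and 262 TPM and 209.9, 213, 229 and 234 TPM. Their values overlap, with Itgb7 above Itgb2 in every library. Itga4 and Itgal, which pair with Itgb7 and Itgb2 in that order, followed at 134 ± 6.15 TPM and 132 ± 10.7 TPM. Itgax, the CD11c chain of dendritic cells and many macrophages, was at 0.118, 0.195, 0.029 and 0.214 TPM.

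The cells carried the transcripts of active division. Of cyclins, their kinases, inhibitors and linked genes 28 of 32 were present, with Pcna at 154 ± 4.96 TPM, Cdk1 at 60.2 ± 6.99 TPM, Top2a at 52.4 ± 1.79 TPM and Mki67 at 37.8 ± 2.03 TPM. Trp53, the tumour suppressor, was at 139, 146, 167 and 164 TPM and its target and inhibitor Mdm2 at 261, 259, 255 and 264.6 TPM, with Cdkn1a, another target, at 93.6 ± 5.04 TPM. Cdkn2a, which encodes the inhibitors p16 and p19ARF, had a count of 0 in all 4 libraries, and its neighbour Cdkn2b was at 0.0635 TPM. The D cyclins Ccnd2, Ccnd3 and Ccnd1 were at 96.9, 85.3 and 58.7 TPM. Of the BCL2 family 14 of 18 were present. Mcl1 and Bcl2l1, which protect from death, were at 210.3, 204, 214 and 223 TPM and 174, 194, 196 and 198 TPM, and Bcl2 itself was at 2.49, 2.73, 2.64 and 2.77 TPM. Bok and Bik were not detected.

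The spread between the 4 libraries was small for most genes. After scaling of counts between libraries, the median coefficient of variation over present genes was 7.29%, with quartiles of 4.8% and 11.1%. It was 16.5% for genes of 1 to 5 TPM, 9.32% from 5 to 20, 6.22% from 20 to 100, 5.04% from 100 to 1000 and 6.09% above that. Counting error alone would give 12.5% in the lowest band and 0.794% in the highest. In the lowest band 29.3% of genes varied no more than counting error, and in the highest 0.833%. Without control 1 the median was 5.86%, and without controls 1 and 2 it was 4.76%, over fewer libraries.

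Genes that varied most were led by the acinar transcripts. Of 9356 present genes with a mean of 5 TPM or more, 18 had a coefficient of 50% or more, and 9 of those were on the acinar list. Reg1, a secreted protein of acinar cells, varied most, at 37.1, 18, 3.22 and 1.13 TPM, and Amy2a1, pancreatic amylase, was at 57.3, 30.1, 5.48 and 2 TPM. The remaining ones included Clu, the secreted chaperone clusterin, at 14.7, 6.44, 4.11 and 3.81 TPM, highest in control 1. Pde2a, a phosphodiesterase, was at 4.48, 6.86, 2.79 and 12.3 TPM, and Nutf2, which carries Ran into the nucleus, at 6.28, 3.27, 7.45 and 16.7 TPM, both highest in control 4. H2ac18, a gene for the core histone H2A with a near-identical neighbour, was at 4.33, 12.5, 16.7 and 8.03 TPM, lowest in control 1. Some large coefficients belonged to symbols with 2 identifiers. The 2 identifiers of Nnt, nicotinamide nucleotide transhydrogenase, had coefficients of 35.4% and 49.9%, but their sum was at 30.6, 32.3, 33.2 and 31.3 TPM with a coefficient of 2.79%.

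**Figure D5:**
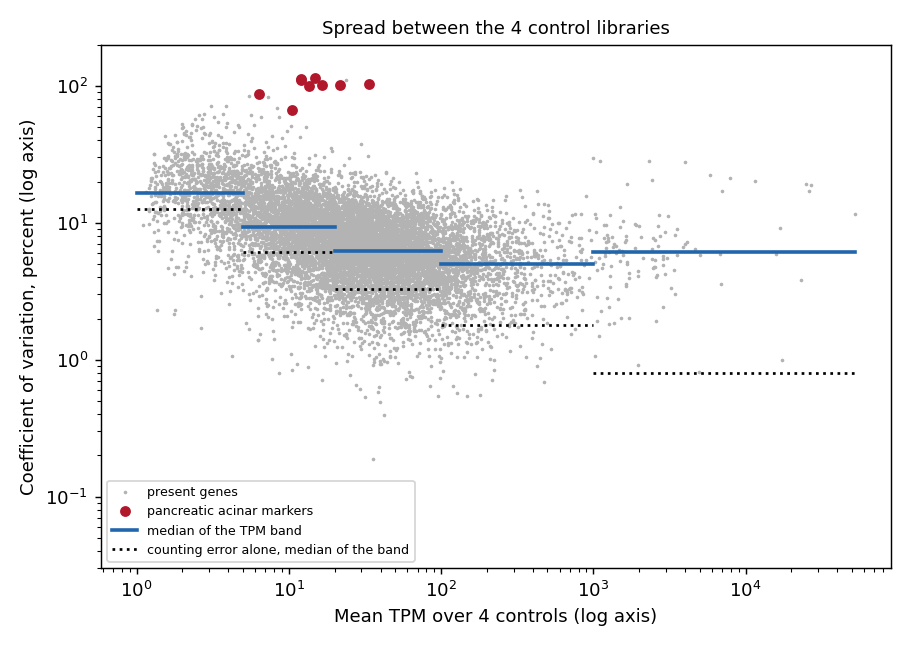
Coefficient of variation over the 4 control libraries against mean TPM for the 10393 present genes, both on log axes, with pancreatic acinar markers in red. Solid lines give the median of each TPM band and dotted lines what counting error alone would give. Acinar markers lie at the top, and the gap between solid and dotted lines widens with the level.

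Genes of one family differed in how steady they were. Lists with a low median coefficient were Src, Syk and Tec family kinases at 4.24%, the ETS family at 4.69%, enzymes of the TCA cycle at 4.71%, interferon receptors at 4.81%, JAK and MAP kinases at 4.82% and integrins at 4.84%. Chemokine receptors, at low levels, had 22.2%. Snap23, a protein of vesicle fusion, had the smallest coefficient among genes of 5 TPM or more in scaled counts, 0.187%. In TPM, which takes account of transcript length, Snap23 was at 32.8, 37.4, 34.3 and 38.8, so its small coefficient stands in the counts and not in the TPM. Next were Nde1, Xpo5, Limk2 and Gramd1b, at 0.393%, 0.489%, 0.531% and 0.54%. All 5 varied less than counting error alone would give. They were picked as the smallest of 9356 coefficients, each from 4 values, and the part of that selection in their size was not tested. Tnf had a coefficient of 1.53%, below the median of its band, and Csf1 17.2%, near the median of its own.

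Within lists, part of the neighbours were apart in TPM. Of 747 neighbouring pairs of present members, 338 had 4 values that did not overlap. Without controls 1 and 2 this was 539, from 2 values each. Transcript length matters to such an order: in CPM, which ignores length, the means of 253 pairs stood the other way round. Of the pairs apart in TPM, 61 were also apart in CPM but in the opposite order.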

How the data were processed

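Total RNA of vehicle-treated RAW264.7 cells was enriched for mRNA on capture beads and sequenced on an Illumina instrument, per the labels. Per the submitters' processing notes, which give no order or role, RSEM, StringTie 1.3.1, fastp 0.18.0 and Bowtie2 2.2.8 were used with build GRCm39 (mm39). The authors deposited 1 table with an expected count, an estimate that need not be whole, and a TPM value per gene and library. The strandedness of counting is not given in the sources used here, so antisense and overlapping genes are uncertain. 0 columns were without a sample, and 90 identifiers carried no symbol.

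From the deposited values each gene was classed as present, low or not detected, as defined in the text, and 73 lists with 1547 symbols were counted, 11 of which had no row. Levels were compared between genes as TPM only, by whether 4 values overlapped, and where a symbol had more than 1 identifier the higher was used. For the spread, expected counts were rounded and scaled by TMM in edgeR 4.0.16 (R 4.3.3), and the coefficient of variation was taken over the 4 libraries. The calculation of the coefficient was tested on simulated whole counts without TMM scaling, so the rounding and the scaling were not tested. DESeq2 1.42.0 size factors, other thresholds, other units and left-out libraries were the alternatives. With 1 group, no test between groups was made and no p-value is given. Library totals of 16134421 to 16840886 counts set the precision, and a count of 0 in a library allows up to 3 counts, at most 0.186 CPM. Promoter windows came from the RefSeq table for GRCm38.p6, matched by symbol. Its coordinates are of that build, not of the build used for counting.

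The cells, the lists and the genes named were chosen with earlier results of these data known. By the rule, the text could name the 30 most abundant genes, the 5 markers, the highest 5 members of a list, members not detected, members apart from their neighbours, and the most and least variable genes. Low members, and present members further down a list, were in addition chosen after their values were seen. Some list members are counted but not reported by name here.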

Additional observations from a re-analysis of the deposited data

Results flagged for a closer look

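Of 512 measures examined over the 4 libraries, 24 had 1 library far from the other 3, by a gap that took most of the range. Chance alone would give about 1 in 20 for values free to vary. The total cannot be set against that rate, because it includes low genes with counts in 1 library alone, described below. Among present genes, control 1 was lowest for Bcl2l1, at 173.6 TPM, and for Elf2, at 47.21 TPM, and highest for Tnfrsf10b, the receptor for TRAIL, at 11.35 TPM. Control 2 was highest for Csf1, at 5.936 TPM beside 2.98 to 3.27 in the others, and for Il4ra, at 9.67 TPM, and lowest for Cd86, at 1.213 TPM. Control 3 was highest for Cd5l, at 6.543 TPM, and control 4 for Rab2b, a small GTPase of vesicle traffic, at 47.17 TPM beside 14.8, 18.8 and 14.9 in controls 1 to 3. For genes these gaps were taken on TPM, which takes account of transcript length, and were not looked for in scaled counts. In scaled counts the coefficient of variation of Csf1, given above, was near the median of its band.

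The other 16 were low genes. Most had counts in 1 library alone, so that the gap is the whole range by construction and the chance rate does not apply to them. Commd1b, a copy of the copper regulator Commd1, was at 23.38 TPM in control 1 and at a count of 0 in the other 3. Control 1 also set apart C1qa at 0.115 TPM, Glp1r at 0.041, Igf1r at 0.031, Pparg at 0.135, Irf4 at 0.627 and Nox1 at 0.857 TPM. Control 2 had Axl, the efferocytosis kinase, at 1.251 TPM beside at most 0.127 in the others, Igf1 at 0.017, Maf at 0.019, Mpo at 0.302 and S100a9 at 0.231 TPM. In control 3 it was Cdkn2b at 0.254 TPM, and in control 4 Ciita at 0.062, Me3 at 0.028 and Mefv at 0.048 TPM.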

How the results depend on the processing

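The number of present genes stayed within 1.5 times the value given under every alternative run, from 9093 at 5 TPM to 12059 at any count in each library, and from 10428 to 10446 with 1 library left out. The median coefficient of variation was 8.874% on the deposited TPM and 8.223% over genes with any count in each library. It ran from 5.862% (without control 1) to 7.51% with 1 library left out and was 4.757% without controls 1 and 2, a choice made after seeing the data. The share of the 10 highest genes was 12.74% without mitochondrially encoded genes and 13.57% of counts in place of TPM, and ran from 21.36% to 22.71% with 1 library left out. The number of neighbouring pairs apart was 338, ran from 364 to 436 with 1 library left out and was 539 without controls 1 and 2, where each gene has fewer values that could overlap. With the TPM order kept, 405 pairs were apart in CPM and 350 in TPM rescaled by TMM factors. The members present stayed within 1.5 times in 58 of 73 lists at 5 TPM, in 69 at 0.5 TPM, in 67 at a count of 10 or more, in 55 at any count and in 72 or 73 with 1 library left out. Genes near 1 TPM, such as the chemokine receptors, are limited by depth. No paired analysis was possible because only 1 group was used, so that no groups share replicate numbers.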

Other observations

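Olfactory and pheromone receptors, which serve smell, made up 1397 genes of the table, of which 27 were present (1.93%) and 1239 were not detected. Or6c208 had the highest mean of them, at 79.4, 73.2, 66.7 and 62.2 TPM, followed by Gm15433 at 19.9 TPM and by Or2y1 and Or13a18 at 19.6 and 19 TPM. Their coefficients of variation were 14.2%, 9.65%, 15.9% and 12%.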
